A study of Arabidopsis thaliana with 6 samples.

Results

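Arabinogalactan proteins are secreted plant glycoproteins whose backbones are rich in proline, alanine, serine and threonine. Their prolines are hydroxylated and then carry large branched chains of galactose and arabinose, and many members are tied to the plasma membrane by a glycosylphosphatidylinositol (GPI) anchor. They sit at the cell surface and in the wall, and single members have been linked to root hair growth, reproduction, wall strength and signalling. The family holds classical members with a long glycosylated stretch, lysine-rich members, arabinogalactan (AG) peptides whose mature backbone is very short, and fasciclin-like members (FLA), in which glycosylated stretches alternate with fasciclin adhesion domains.

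The 47 genes described here are those whose annotation in the table of 23640 features contains the word arabinogalactan. Of them, 12 were classical genes, 2 were lysine-rich, 11 encoded AG peptides, 18 were FLA genes and 4 belonged to none of these classes (AGP30, AGP31, AT2G41905 and AT4G16980). They were read in total RNA, depleted of ribosomal RNA, from whole 14-day-old Arabidopsis thaliana seedlings grown in vitro. Wild-type plants of the Col ecotype (3 libraries) were compared with plants of the same ecotype that carry atrx-1 (3 libraries), a single mutant allele of ATRX, the gene of a SNF2-family chromatin remodeler that acts with the histone variant H3.3. The labels do not say whether the libraries of a group came from separate cultures, so p-values measure the spread between these libraries, which may be technical. In RNA from whole seedlings, fewer cells of a type and less RNA per cell cannot be told apart.

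Library totals ranged from 936243 to 14001726 counts, of which 371797 to 5635498 fell on nuclear genes, and the 47 genes together drew 375 to 5261 counts. ATRX itself had 16, 5 and 18 counts in wild type and 18, 3 and 6 in atrx-1, which is 4.82, 5.46 and 5.86 CPM (the level scaled for library depth by TMM) against 1.24, 0.721 and 1.91. Its log2 fold change was -2.09 ± 0.38 (SE) with an adjusted p of 0.0536 in edgeR's quasi-likelihood test, and it was -2.58 with an adjusted p of 0.0722 once gene length was allowed for as described below. Leaving out 1 library moved the edgeR adjusted p between 0.0343 (without wild-type library 1) and 0.326, and it was 0.0487 with RLE size factors and 0.00685 without the filter on low counts. In every comparison below a fold change is atrx-1 over wild type on the log2 scale with its standard error, and a gene was called at a Benjamini-Hochberg adjusted p under 0.05 over all features tested. Genes shorter than average were counted relatively more often in the wild-type libraries and less often in the mutant libraries. Over 13682 nuclear genes the log2 level changed by -0.23, -0.06 and -0.17 per doubling of gene length in wild type and by 0.15, 0.16 and 0.16 in atrx-1, relative to the mean of all libraries. The classes, and the genes named most often, are therefore also given after the length trend of each library was removed. Wild-type library 1 stood apart from the other wild-type libraries in the levels of many of the 47 genes, and in the leaf gene RBCS1A (2030 CPM against 4486 and 4446).

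The 5 AG peptide genes with the highest level per length are shown by their whole coding sequences, because their fold changes lead the results below and show how short these coding regions are. Each has a single coding segment in RefSeq TAIR10.1, and capitals mark its longest run of codons for proline, alanine, serine and threonine. That run spans 8 codons with 3 proline codons in AGP21, AGP12, AGP15 and AGP14, and 6 codons with 3 proline codons in AGP24, where the first of 2 runs of that length is marked. The segments, with strand, are chr1:20648634-20648810 (minus) for AGP21, chr3:4409087-4409269 (plus) for AGP12, chr5:3784318-3784503 (plus) for AGP15, chr5:16301153-16301362 (plus) for AGP24 and chr5:22893243-22893425 (plus) for AGP14.
AGP21: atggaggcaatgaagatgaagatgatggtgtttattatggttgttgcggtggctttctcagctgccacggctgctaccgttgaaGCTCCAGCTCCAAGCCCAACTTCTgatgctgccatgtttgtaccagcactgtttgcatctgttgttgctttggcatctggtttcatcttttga
AGP12: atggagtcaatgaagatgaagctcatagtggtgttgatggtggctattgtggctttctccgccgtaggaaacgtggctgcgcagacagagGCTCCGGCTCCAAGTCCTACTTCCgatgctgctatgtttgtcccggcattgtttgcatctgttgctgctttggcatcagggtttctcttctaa
AGP15: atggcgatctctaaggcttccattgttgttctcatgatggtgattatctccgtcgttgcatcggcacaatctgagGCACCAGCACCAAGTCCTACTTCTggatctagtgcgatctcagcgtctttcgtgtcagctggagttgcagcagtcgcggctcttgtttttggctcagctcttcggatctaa
AGP24: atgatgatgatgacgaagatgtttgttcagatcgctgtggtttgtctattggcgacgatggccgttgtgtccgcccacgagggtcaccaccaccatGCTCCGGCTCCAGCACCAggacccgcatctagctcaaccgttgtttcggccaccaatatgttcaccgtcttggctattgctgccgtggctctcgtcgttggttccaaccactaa
AGP14: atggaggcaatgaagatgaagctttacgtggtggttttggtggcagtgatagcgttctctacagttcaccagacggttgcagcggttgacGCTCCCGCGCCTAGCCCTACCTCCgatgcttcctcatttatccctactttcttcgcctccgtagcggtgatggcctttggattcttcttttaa

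The coding sequences of all 47 genes, matched to TAIR10.1 by locus tag, differed in size and codon content between the AG peptide, classical and FLA genes. AG peptide genes had 58 to 74 codons with a median of 43.2% for proline, alanine, serine or threonine, and classical genes had 116 to 191 codons with a median of 62.6%. The lysine-rich genes AGP17 and AGP18 had 185 and 278 codons, of which 56.8% and 53.6% were of this kind, AGP17 being within the classical range on both measures. FLA genes had 204 to 489 codons with a median of 32.7%, against 25.2% over 22085 nuclear protein-coding genes. The 2 unnamed FLA genes AT5G26730 and AT3G55820 lay below that background, at 20.5% and 22.5%. Classical genes held a median of 18.5 proline codons that directly follow an alanine, serine or threonine codon, FLA genes 10 and AG peptide genes 3. The background median was also 3, but in genes with a median of 376 codons, against 62 codons for AG peptide genes. Identical stretches between members were short: FLA8 and FLA10 shared 53 nt, the only pair of 1081 with 50 nt or more, and AGP16 and AGP22 shared 29 nt. In TAIR10.1, 8 members overlap a gene on the opposite strand (AGP21, AGP16, AGP4, AGP10, AGP26, FLA11, FLA16 and AT4G16980), and without a stated strand setting their reads and those of the partner cannot be told apart.

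**Figure D1:**
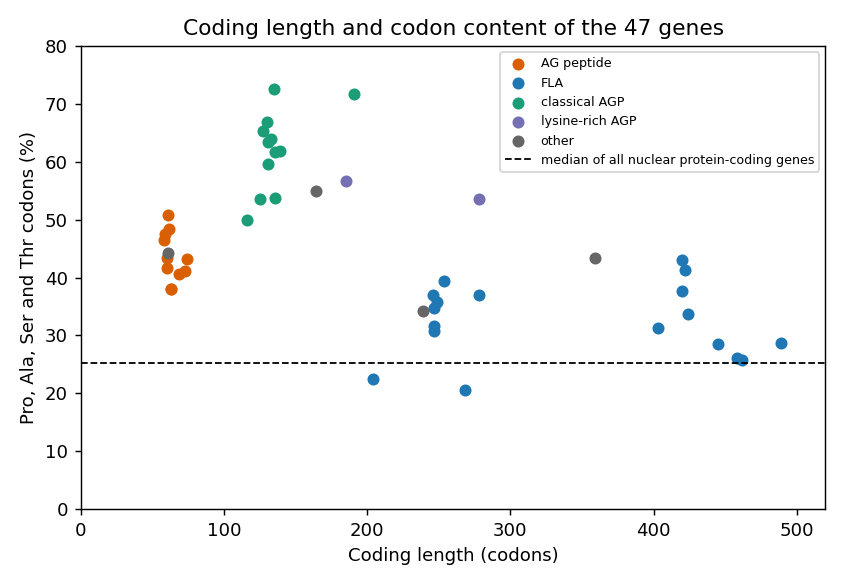
Coding length in codons (x axis) against the percent of codons for proline, alanine, serine and threonine (y axis) for the 47 genes, each point a gene coloured by class, with the median of all nuclear protein-coding genes as a dashed line. AG peptide genes sit at 58 to 74 codons, classical genes reach the highest codon shares, and the longest genes are FLA genes. The FLA genes span 204 to 489 codons, a range that also holds AGP18 and AGP31, and 2 of them are below the dashed line at 25.2%.

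Levels were compared between genes on the authors' normalized signal divided by gene length in kb. AGP21, whose peptide is known for its part in root hair cell fate, had the highest mean level, 912, 319 and 566 per kb in wild type and 245, 213 and 247 in atrx-1. AGP12 (825, 224 and 544 against 204, 237 and 304) came next. AT4G16980, annotated only as a member of the family, followed with 310, 376 and 347 in wild type and 409, 445 and 394 in atrx-1, and AGP15 (697, 312 and 407 against 338, 268 and 251) came after it. These 4 genes overlapped in wild type, where AGP21 spanned 319 to 912, while in atrx-1 AT4G16980 was above the other 3 in every library. They held 64.3% ± 5.55 (SD, n = 3) of the members' summed level per kb in wild type and 62.8% ± 3.14 in atrx-1. AGP24 (means of 262 and 127 per kb) followed, then AGP14 (93.6 and 40.9) and AGP16 (78.3 and 44.9), and no FLA or classical gene was above 63.0 in either mean. The most abundant FLA genes were FLA9 (63.0 ± 38.5 in wild type and 58.6 ± 14.5 in atrx-1) and FLA18 (50.2 ± 11.8 and 40.5 ± 6.91), and the most abundant classical gene was AGP2 (51.1 ± 13.7 and 38.7 ± 6.27). AG peptide genes made up 69.2% ± 9.20 of the summed level per kb in wild type and 54.6% ± 1.03 in atrx-1, and FLA genes 11.3% ± 3.54 and 14.3% ± 0.603. These levels and shares were taken without removal of the length trend, under which short genes were counted relatively more often in wild type.

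**Figure D2:**
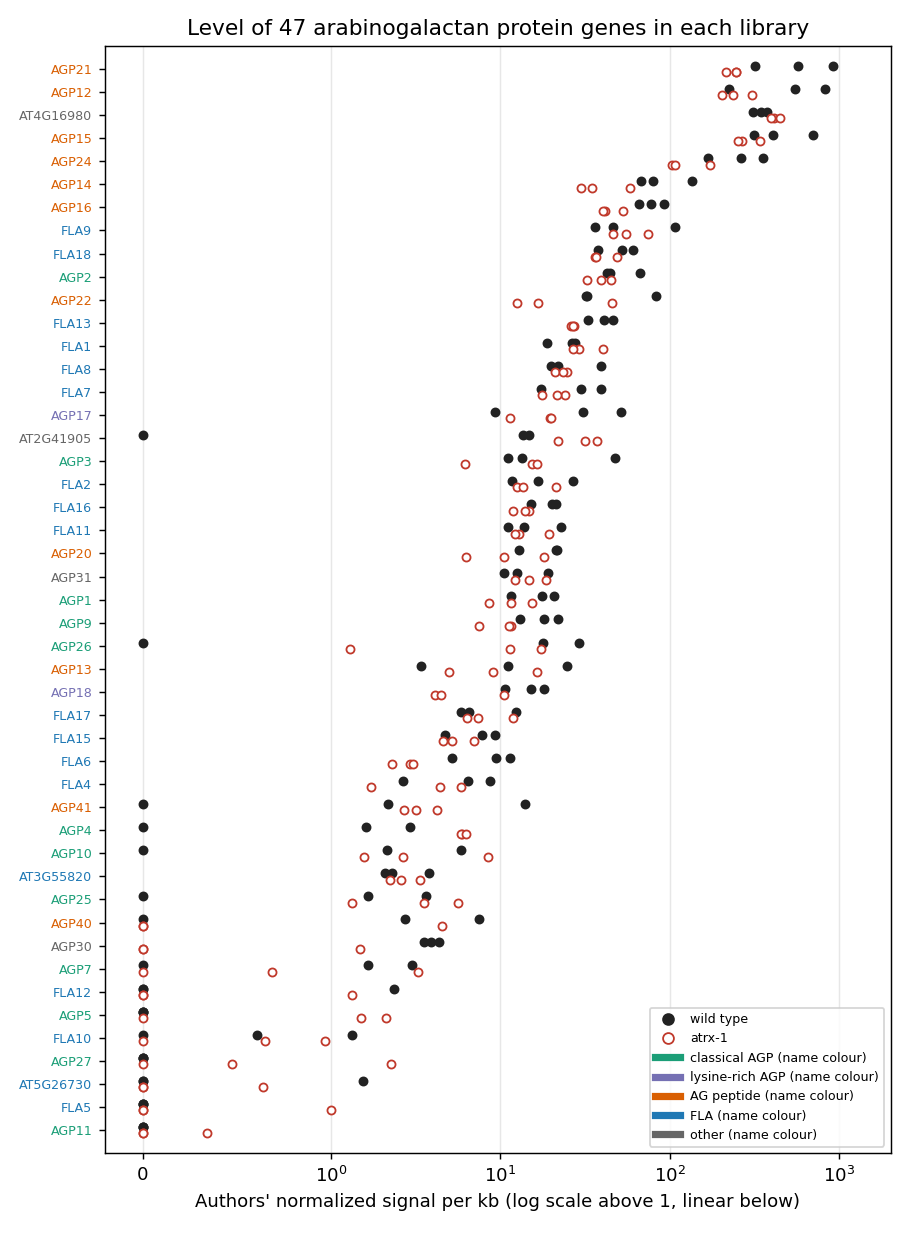
Level of each of the 47 genes (y axis, ordered by mean) as the authors' normalized signal per kb (x axis, logarithmic above 1 and linear below), with 3 wild-type libraries as filled points and 3 atrx-1 libraries as open points. AG peptide genes fill 6 of the 7 highest places, and AGP5, AGP27, FLA5 and AGP11 at the bottom were at 0 in all wild-type libraries.

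Reads from the family were unequally shared, and 21 of the 47 genes were too low to be tested. No member was at 0 in all 6 libraries, but 0 to 14 members had no read in a given library, the most in wild-type library 2, the shallowest. AGP5, AGP27, FLA5 and AGP11, the last known as a pollen gene, had a count of 0 in every wild-type library and totals of 6, 2, 4 and 1 in atrx-1, at no more than 0.343 CPM in any mutant library. The floor of 3 counts corresponds to 0.206 CPM in the deepest library and 3.28 CPM in the shallowest, for counting error only. The filter kept 4 of 12 classical genes, 1 of 2 lysine-rich genes, 8 of 11 AG peptide genes, 11 of 18 FLA genes and 2 of the 4 others.

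None of the 26 tested members was called, where 16 of 13819 features (0.116%) were called lower in atrx-1 and 0 (0.00%) higher. At an unadjusted p under 0.05, 9 members had a lower level and 0 a higher one, that is 34.6% against 10.9% of all features on the lower side and none against 8.64% on the higher side. The fold change was below 0 for 21 members and above 0 for 5, with a median of -0.42 and a range of -1.40 to 0.30, where 48.8% of all tested features were below 0 with a median of 0.01. Without wild-type library 1 the members' median was -0.14, and without wild-type library 3 it was -0.71. All mutant libraries lay below all wild-type libraries for 6 members (AGP21, AGP14, AGP16, FLA13, FLA16 and AGP9), or 23.1%, where 11.4% of all tested features did so. Among tested members the opposite held for AT4G16980 alone, where 12.2% of all tested features did so. DESeq2 called 3 members lower (AGP21, AGP12 and AGP24) and 0 higher, where it called 3.07% of the 5639 features with an adjusted p lower and 0.833% higher. Besides these 3, only AGP15, AT4G16980, FLA9 and FLA18 among the members had an adjusted p in DESeq2. Of the 9 members with an adjusted p in the authors' deposited table, AGP21 (0.0284) and AGP24 (0.0377) were below 0.05 with a lower level, where that table has 4.0% of 6995 features lower and 3.06% higher. Without the filter on low counts edgeR called 4 members lower (AGP21, AGP12, AGP24 and AGP14), where it called 1.74% of 23043 features lower and 0.833% higher.

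The AG peptide genes were lower in atrx-1 in all 8 tested cases, with a median fold change of -1.17 and 7 at an unadjusted p under 0.05, although none was called. Their summed level was 407, 165 and 252 CPM in wild type and 137, 124 and 144 CPM in atrx-1, a mean of 275 ± 123 (SD, n = 3) against 135 ± 10.1. All mutant libraries were below all wild-type libraries, and the wild-type libraries differed among themselves more than the mutant ones. Wild-type library 1 was the highest, and without it the median of the class was -0.70.

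AGP21 read 103, 36.1 and 62.9 CPM in wild type and 27.7, 23.8 and 27.4 in atrx-1. The groups did not overlap, and the mutant libraries were within a narrow band. The fold change was -1.40 ± 0.29 with an adjusted p of 0.0597 in edgeR, and leaving out 1 library moved this p between 0.0305 and 0.326. It passed the threshold without wild-type library 1 (0.0324) or 2 (0.0305), where 1.45% and 0.715% of all features were called lower and 1.16% and 0.00% higher. DESeq2 gave an adjusted p of 0.00173, and the authors' deposited table a log2 fold change of -0.81. AGP14, known for a part in root hair length, read 17.5, 8.74 and 10.1 CPM in wild type and 4.53, 7.45 and 3.83 in atrx-1, again without overlap. Its fold change was -1.31 ± 0.32 with an adjusted p of 0.0750 in edgeR.

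AGP12 read 112, 30.6 and 73.0 CPM in wild type and 27.8, 32 and 40.8 in atrx-1, so that wild-type library 2 lay among the mutant libraries. The fold change was -1.17 ± 0.34 with an adjusted p of 0.0979 in edgeR, of 0.0346 without wild-type library 2 and of 0.0306 in DESeq2. AGP24 read 41.8, 19.7 and 30.6 CPM against 12.1, 12.5 and 20.1, and its lowest wild-type and highest mutant libraries crossed. Its fold change was -1.17 ± 0.27 with an adjusted p of 0.0701 in edgeR, of 0.0491 without wild-type library 2 and of 0.0254 in DESeq2. AGP15 read 99.6, 44.8 and 57.3 CPM against 48.5, 38.0 and 35.4, with wild-type library 2 within the mutant range, a fold change of -0.75 ± 0.27 and an adjusted p of 0.153 in edgeR.

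Of the remaining AG peptide genes, AGP16 read 13.5, 16.4 and 11.4 CPM in wild type and 9.40, 7.21 and 7.02 in atrx-1 without overlap (fold change -0.69 ± 0.24, edgeR adjusted p 0.141). AGP22 (-1.30 ± 0.49) and AGP20 (-0.37 ± 0.47) overlapped between the groups. AGP13, AGP40 and AGP41 drew 0 to 13 counts in a library and were not tested.

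**Figure D3:**
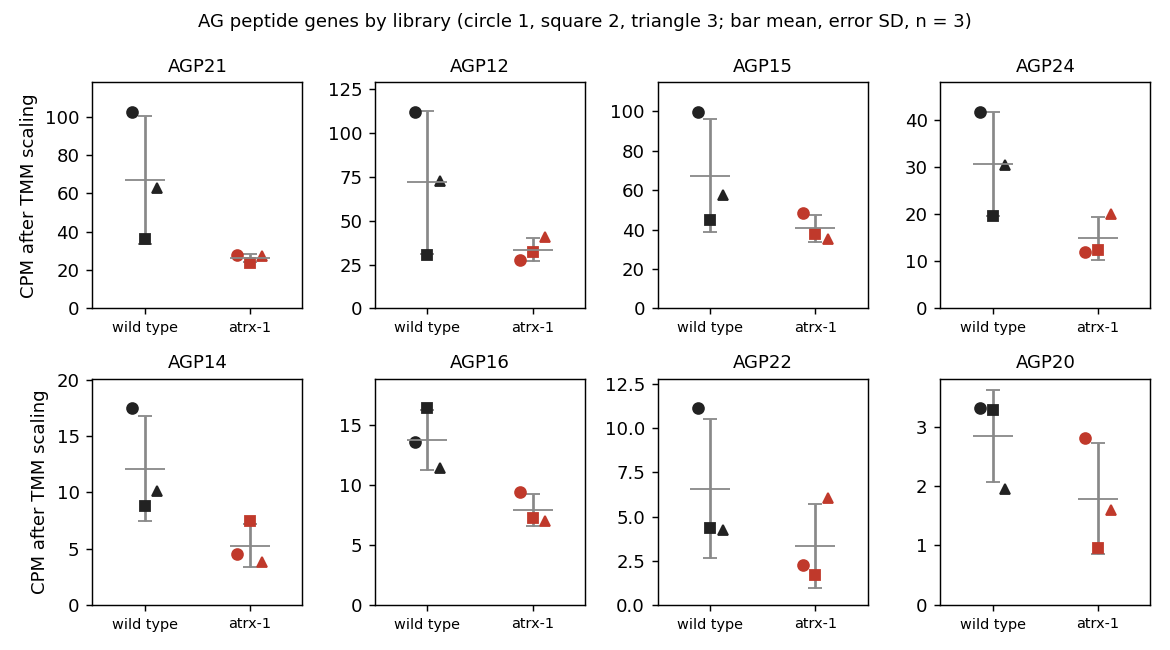
CPM after TMM scaling (y axis, from 0) of the 8 tested AG peptide genes in 3 wild-type and 3 atrx-1 libraries (circle, square and triangle for libraries 1, 2 and 3), with the group mean as a bar and the SD as error. Wild-type library 1 is the highest point for all of these genes except AGP16, and the groups are apart for AGP21, AGP14 and AGP16.

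Of 11 tested FLA genes 8 had a value below 0 and 3 above, with a median fold change of -0.25 and a range of -0.58 to 0.30, none was called, and 1 had an unadjusted p under 0.05. That gene was FLA13, at 11.1, 9.83 and 7.82 CPM in wild type and 6.32, 6.49 and 6.38 in atrx-1. Its groups did not overlap, with a fold change of -0.58 ± 0.25 and an adjusted p of 0.224 in edgeR. FLA16, which is known for a part in stem wall strength, read 9.33, 9.83 and 6.84 CPM against 5.49, 6.73 and 6.38, also without overlap (-0.47 ± 0.27, edgeR adjusted p 0.352).

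FLA9 read 29.2, 9.83 and 12.4 CPM in wild type and 15.1, 12.5 and 20.1 in atrx-1. A single high library, wild-type library 1, set its direction: the fold change was -0.25 ± 0.33 with all libraries and 0.41 without that one, and the authors' deposited table gives 0.34. FLA18 read 27.1, 31.7 and 19.2 CPM against 18.9, 19.0 and 24.9 with overlapping groups (-0.28 ± 0.22). FLA1, which has been tied to shoot regeneration, read 10.8, 7.65 and 11.1 CPM against 11.9, 10.8 and 16.3, the largest positive fold change of the class (0.30 ± 0.24, edgeR adjusted p 0.537), with overlapping groups.

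FLA11, a gene of secondary wall formation in stems, read 3.31, 5.46 and 2.61 CPM in wild type and 3.09, 4.57 and 2.87 in atrx-1, a fold change of 0.04 ± 0.38. Its relative FLA12 drew 2, 0 and 0 counts in wild type and 5, 0 and 0 in atrx-1, and FLA4 (SOS5), which acts in root growth and salt response, drew 8, 3 and 3 counts and 24, 9 and 2. Neither was tested. The median of the class depended on wild-type library 1, being 0.03 without it, and it was -0.56 without wild-type library 3. FLA6, also untested, read 2.41, 1.09 and 1.95 CPM in wild type and 0.618, 0.481 and 0.638 in atrx-1 without overlap, from 8, 1 and 6 counts against 9, 2 and 2.

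All 4 tested classical genes had a value below 0, with a median of -0.60. With the length trend removed AGP1 was tested as well, which made 5 genes, 4 below 0 and 1 above. Their median was -0.06, the value of AGP1. AGP9 read 6.62, 5.46 and 3.91 CPM in wild type and 3.50, 3.36 and 2.23 in atrx-1 without overlap, a fold change of -0.73 ± 0.34 with an adjusted p of 0.254 in edgeR. AGP2 read 12, 7.65 and 7.82 CPM against 7.07, 5.77 and 7.97 (-0.47 ± 0.27, and -0.03 ± 0.26 with the length trend removed), and its groups overlapped. AGP3 read 9.33, 2.19 and 2.61 CPM against 3.02, 1.20 and 3.19, and its fold change of -1.06 ± 0.50 came to 0.06 without wild-type library 1. AGP26 had no read in wild-type library 3 and 5.46 CPM in library 2, with a fold change of -0.26 ± 0.81, and of 0.15 ± 0.80 with the length trend removed.

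The other 8 classical genes were not tested on the counts as deposited. AGP1 read 3.91, 2.19 and 3.26 CPM in wild type and 2.88, 2.16 and 1.59 in atrx-1 with overlapping groups. AGP4 (JAGGER), known for blocking further pollen tubes after fertilization, drew 2, 0 and 1 counts in wild type and 18, 5 and 4 in atrx-1, which is 0.602, 0 and 0.326 CPM against 1.24, 1.20 and 1.28. The mutant libraries were above the wild-type ones, at counts near the floor.

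The lysine-rich AGP17 (RAT1), known for its part in the binding of Agrobacterium to roots, read 10.8, 6.56 and 1.95 CPM in wild type and 4.19, 2.40 and 4.15 in atrx-1. The wild-type libraries spanned the mutant range on both sides. The fold change was -0.81 ± 0.48 (edgeR adjusted p 0.380), it was 0.26 without wild-type library 1, and the authors' deposited table gives 0.11. AGP18, needed for the selection of the functional megaspore, was untested with 13, 3 and 7 counts in wild type and 13, 4 and 7 in atrx-1. That is 3.91, 3.28 and 2.28 CPM against 0.892, 0.961 and 2.23, so that the mutant libraries were all below, the nearest pair being 2.28 and 2.23.

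AT4G16980 was the only tested member above wild type in every mutant library. It read 68.3, 83.0 and 75.3 CPM in wild type and 90.3, 97.1 and 85.8 in atrx-1, a fold change of 0.28 ± 0.18 with an adjusted p of 0.433 in edgeR. After removal of the length trend the value was 0.57 ± 0.19 with an adjusted p of 0.314. AGP31, a wall protein whose gene is repressed by methyl jasmonate, read 6.62, 4.37 and 3.58 CPM against 6.45, 5.05 and 4.15 with overlapping groups (0.13 ± 0.33). AT2G41905 was untested with 6, 0 and 5 counts in wild type and 56, 11 and 14 in atrx-1, and its mutant libraries, at 3.84, 2.64 and 4.47 CPM, were above the wild-type ones at 1.81, 0 and 1.63. AGP30, which acts in root regeneration and seed germination, drew 4, 1 and 3 counts in wild type and 6, 0 and 0 in atrx-1.

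The fold change of the members followed their length, as it did over the nuclear genome. Spearman's correlation of fold change and gene length was 0.71 over the 26 tested members and 0.58 over 13682 nuclear genes, given as a description, since all genes share the same 6 libraries. Tested AG peptide genes had a median length of 514 nt and tested FLA genes one of 1546 nt. The 7 tested members under 600 nt, which are all AG peptide genes, had a median fold change of -1.17, where 509 nuclear genes of that length had -0.60. The 8 members of 600 to 1000 nt had -0.52 against -0.36 for 2316 nuclear genes, and the 11 members of 1000 nt and over had -0.25 against 0.10 for 10857.

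After the length trend of each library was removed, 27 members were tested and none was called, as no gene of 13679 was in either direction (0.00%). At an unadjusted p under 0.05, 2 were lower, AGP21 and AGP14, and 1 was higher, AT4G16980, where 6.43% of all genes were lower and 4.38% higher. The value was below 0 for 21 and above 0 for 6, with a median of -0.29. The median of the AG peptide genes went from -1.17 to -0.55, with 7 below 0 and 1 above, and that of the FLA genes from -0.25 to -0.29. The classical median was -0.60 over 4 genes before and -0.06 over 5 after, AGP1 (-0.06) being tested only after removal. Of the 4 genes tested both times, AGP3 then had -0.67, AGP9 -0.57, AGP2 -0.03 and AGP26 0.15. The lysine-rich AGP17 went from -0.81 to -0.47. The difference between the classes was not tested. AGP21 had -0.73 ± 0.23, AGP14 -0.71 ± 0.29, AGP12 -0.58 ± 0.28, AGP24 -0.52 ± 0.25 and AGP15 -0.21 ± 0.22. The correlation with length was then 0.32 over the members and 0.03 over the nuclear genes. Within the FLA genes it was 0.19 before removal.

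**Figure D4:**
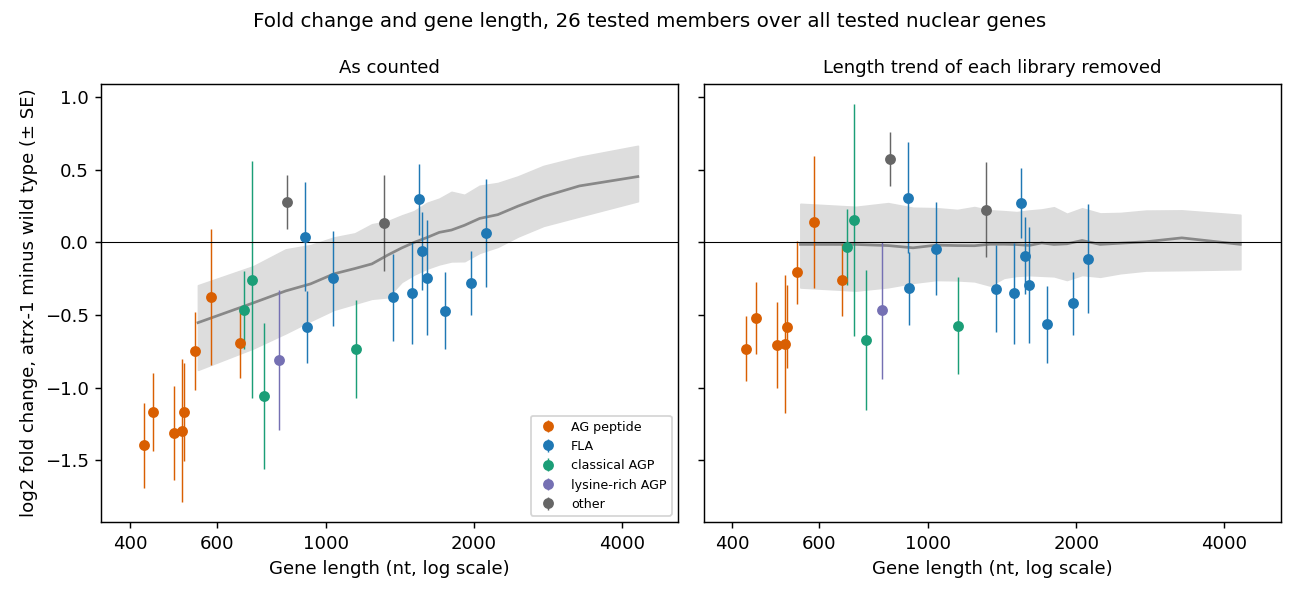
Log2 fold change with its standard error (y axis) against gene length in nt (x axis, logarithmic) for the 26 tested members, before (left) and after (right) the length trend of each library was removed, with the median and the quartiles of 20 length classes of nuclear genes as a grey line and band. Before removal the shortest AG peptide genes lie below the grey line, which itself falls toward short genes, and after it their values lie nearer to 0.

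**Figure D5:**
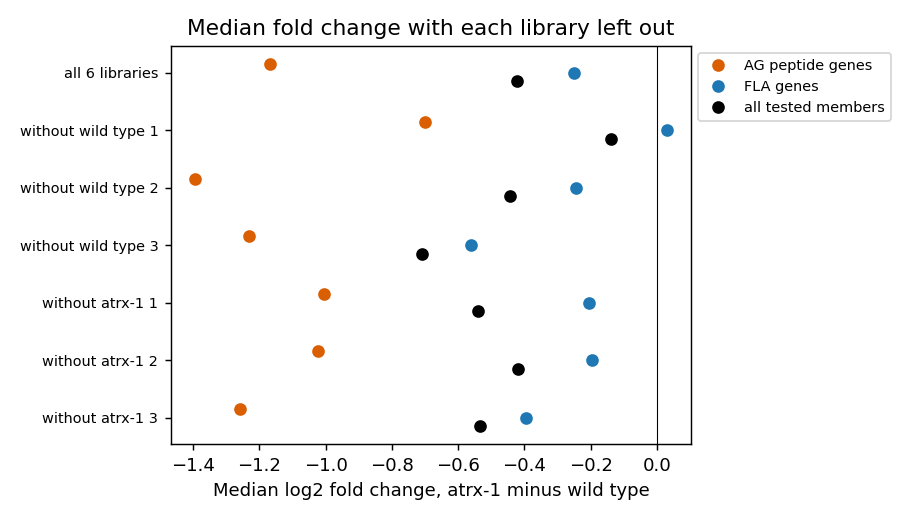
Median log2 fold change (x axis) of the tested AG peptide genes, the FLA genes and all tested members, with all 6 libraries (top) and with each library left out in turn (y axis). The AG peptide median stays between -1.39 and -0.70, whereas the FLA median is 0.03 without wild-type library 1.

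Genes that build and trim the sugar chains of these proteins were examined in lists. Together with the wall, organ and cell type lists given further on, 93 listed genes were tested. None was called in edgeR, and DESeq2 called 1, the seed storage gene CRA1. In edgeR 21 (22.6%) had an unadjusted p under 0.05, where 19.5% of all features had one. Of these, 13 lower and 2 higher genes were among the 47 tested other hydroxyproline-rich wall proteins. The prolyl 4-hydroxylases and the glycosyltransferases had 1 each, and the arabinose supply, galactan hydrolase, GPI anchor and FEI lists had 0. Prolyl 4-hydroxylases make the hydroxyproline to which the sugars are attached, and 7 of the 11 in the table were tested. All 7 had a value below 0, with a median of -0.10, but with the length trend removed 3 were below 0 and 4 above, with a median of 0.02. P4H5, which hydroxylates wall proteins of root hairs, read 31.0, 12 and 11.7 CPM in wild type and 10.8, 12 and 10.8 in atrx-1. Its fold change was -0.81 ± 0.32 (edgeR adjusted p 0.197), and the difference lay in wild-type library 1. P4H3 read 7.52, 7.65 and 6.84 CPM against 5.63, 4.57 and 4.47 without overlap (-0.52 ± 0.27, edgeR adjusted p 0.308).

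Of the glycosyltransferases that act on arabinogalactan chains, 14 of 18 in the table were tested, 8 below 0 and 6 above, with a median of -0.06, and 10 below and 4 above with the length trend removed (median -0.11). GALT31A, a galactosyltransferase, read 6.02, 5.46 and 3.58 CPM in wild type and 2.95, 2.16 and 3.19 in atrx-1 without overlap (-0.81 ± 0.34, edgeR adjusted p 0.216). GLCAT14C, which adds glucuronic acid, read 4.21, 4.37 and 3.26 CPM against 2.88, 2.64 and 2.87 (-0.44 ± 0.33). The 3 tested genes of arabinose donor supply were below 0, among them RGP1, a UDP-arabinopyranose mutase (21.7, 21.9 and 24.4 CPM against 19.0, 17.1 and 16.9 without overlap, -0.35 ± 0.18, edgeR adjusted p 0.305), and MUR4, a UDP-arabinose epimerase (-0.45 ± 0.51).

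The galactan hydrolases GH43A and GH43B had fold changes of 0.49 ± 0.31 and -0.08 ± 0.33, and 3 genes of GPI anchor synthesis were above 0 with a median of 0.30, and of 0.17 with the length trend removed. Among them APTG1 and PNT1, which add mannose to the anchor, had 0.31 ± 0.36 and 0.30 ± 0.41. The kinases FEI1 and FEI2, which act in a pathway with FLA4, had 0.30 ± 0.19 and -0.31 ± 0.27, and 0.04 and -0.51 with the length trend removed. CESA1, CESA3 and CESA6, the cellulose synthases of the primary wall and much longer genes than the members, had 0.30 to 0.32 with no overlap between the groups, and -0.11 to -0.06 after removal of the length trend.

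Markers of organs and cell types were read beside the members. The leaf markers RBCS1A and LHCB1.1 were abundant and each had a fold change of -0.14. Flower markers were low and none was tested. The 4 of them together drew 9, 2 and 2 counts in wild type and 15, 6 and 8 in atrx-1. There was no AP3 count and 1 AG count in all 6 libraries, so nearly all of these counts fell on PI and SEP3. Root markers were present, and the 3 tested ranged from -0.14 to 0.58, with 0.58 ± 0.45 for SHR and 0.24 ± 0.28 for SCR, regulators of root radial pattern. After removal of the length trend 2 root markers were below 0 and 1 above, from -0.44 to 0.43, and SCR had -0.03. Both tested root hair markers were below wild type in every mutant library, as were 11.4% of all tested features. EXPA18, an expansin, read 7.82, 9.83 and 9.45 CPM against 3.16, 4.57 and 6.06 (-1.07 ± 0.31, edgeR adjusted p 0.0995), and EXPA7 had -0.74 ± 0.39. With the length trend removed they had -0.86 and -0.54. The 4 root hair markers summed to 16.6 to 21.4 CPM in wild type and 6.97 to 15.3 in atrx-1, the same direction as AGP21 and AGP14, and their part in those values was not tested. Seed storage CRA1 read 75.2, 54.6 and 30.0 CPM against 27.4, 28.6 and 12.8 (-1.18 ± 0.34, edgeR adjusted p 0.0962). Of the xylem list, CESA4 had 0.81 ± 0.34 and XCP1 -0.83 ± 0.30, both without overlap between the groups and with edgeR adjusted p of 0.213 and 0.159. After removal of the length trend CESA4 had 0.43 and XCP1 -0.74.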

How the data were processed

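RNA sequencing values of 6 libraries, 3 wild type and 3 atrx-1, came from a single table deposited by the authors. The deposited read counts per gene were used in every test. The authors' normalized signal, which equals the count over 1 size factor for each library, and its length-divided form (per kb) were used as deposited, and their ratio gave gene length. The authors' log2 fold changes and adjusted p-value column were copied from their deposited table. Per the submitters' processing notes, the reads were handled on build TAIR10 with HTSeq 0.6.1, Bowtie2 2.1.0, CASAVA 1.8.2, DESeq, TopHat2 2.0.14 and DESeq2 1.6.3, with roles, annotation version and strand setting not given in the sources used here. Per the labels' protocols, RNA was depleted of ribosomal RNA.

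Counts were tested with edgeR 4.0.16 in R 4.3.3 (TMM, filterByExpr with minimum count 10 and minimum total 15, glmQLFit, glmQLFTest, genotype as the only term), with Benjamini-Hochberg adjustment over 13819 features and a threshold of 0.05. The biological variation coefficient came to 19.3%, and standard errors come from the F statistic. Length trends were removed as offsets from a lowess curve (span 0.3) of each library over nuclear genes. The code was tested on simulated data. Alternatives were RLE size factors, DESeq2 1.42.0, a fit on nuclear genes, no filter, a stricter filter (mean of 5 CPM and 1 CPM in each library of a group), a replicate block, length removal and leaving out each library. Coding sequences were read from RefSeq TAIR10.1 for all 47 genes by locus tag, and 43 of the genes have a name in the table.

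The members and lists were chosen with earlier results of these data known. The classes follow the family names. Members were named in the text where they were among the 4 highest per kb or the 3 smallest p in their class; other members, such as AGP16, AGP22, FLA4 and AGP4, were named after their values were seen. From each list with tested genes the 2 smallest p were named. Pollen markers were not analysed here.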

Additional observations from a re-analysis of the deposited data

How the results depend on the processing

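Against 0 members called, DESeq2 called 3 (AGP21, AGP12 and AGP24), the fit without a filter 4 (these and AGP14), and leaving out a library 0 to 3, all lower in atrx-1, with 3 reached without wild-type library 2. The other alternatives (RLE size factors, nuclear genes, stricter filter, block, length removal with and without the block) called 0, with 9 members at an unadjusted p under 0.05 for RLE size factors and 3 for length removal. Over all genes, 16 calls became 220 with DESeq2, 38 with RLE size factors, 592 without a filter, 34 with a replicate block, 0 with the length trend removed (1478 at an unadjusted p under 0.05), 1 with length removal and the block, and 0 to 378 with a library left out. For the pathway lists, 0 calls became 1 with DESeq2, 6 without a filter, 1 with the block and 0 to 3 with a library left out.

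The median fold change of the members ran from -0.71 to 0.085 with a library left out, the highest being without wild-type library 1 and with length removal. That of the AG peptide genes was -0.55 with length removal and -0.49 with length removal and the block. It ran from -1.39 to -0.33 when a library was left out, with and without length removal, the highest being with length removal. That of the FLA genes ran from -0.56 to 0.12 when a library was left out, with and without length removal. Among leave-outs with and without length removal, AGP31 (-0.12 to 0.65), AGP2 (-0.65 to 0.20) and AGP17 (-1.37 to 0.57) reversed. So did AGP3 (-1.50 to 0.40), AGP15 (-0.96 to 0.085) and FLA9 (-0.56 to 0.61), and FLA9 was 0.090 with length removal and the block. AGP2 was above 0 only where the length trend was also removed. Without wild-type library 1 it was -0.17, and 0.20 with length removal as well. Of the alternatives run for single named genes, 296 kept direction and side of the threshold, 14 passed it and 16 reversed. The cause of these changes was not tested.

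Correlations of same-numbered libraries, as deviations from their group mean, were 0.064, 0.057 and -0.079 over 13819 genes. Those of differently numbered libraries ran from -0.13 to 0.088. No pairing by replicate number was seen in these values, which cannot tell how the samples were grown or handled. In the shallowest library a count of 3 corresponds to 3.28 CPM, so differences among members below that level were not detectable there.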

Other observations

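Other hydroxyproline-rich wall proteins, chosen as the genes whose annotation contains extensin or hydroxyproline-rich and not arabinogalactan, numbered 135, of which 47 were tested. Of these, 33 had a lower and 14 a higher value in atrx-1, with a median log2 fold change of -0.33, and -0.21 after removal of the length trend. None was called in edgeR, and 13 lower and 2 higher genes had an unadjusted p under 0.05, where 10.9% of all features were lower and 8.64% higher at that p. With the length trend removed 8 lower and 2 higher genes had one. AT2G43150, annotated in this group, read 16.6, 12 and 11.4 CPM in wild type and 5.63, 3.84 and 6.38 in atrx-1 without overlap. Its fold change was -1.36 ± 0.27 with an adjusted p of 0.0568 in edgeR, and of 0.0557 in the authors' deposited table. LRX4, a leucine-rich repeat extensin of the wall, read 4.82, 6.56 and 5.21 CPM against 2.81, 1.68 and 1.91 without overlap, with -1.15 ± 0.34 and an edgeR adjusted p of 0.104. Both had a similar value after removal of the length trend (-1.16 and -1.15).

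The share of nuclear counts that fell on the 47 arabinogalactan protein genes was 0.149%, 0.101% and 0.100% in wild type and 0.0934%, 0.0887% and 0.0969% in atrx-1. The mutant libraries were all below, and wild-type library 1 stood above all others. Without the AG peptide genes the groups overlapped, the other members summing to 269, 245 and 194 CPM in wild type and 224, 215 and 233 in atrx-1. The length trend was not removed from these sums.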
